A study of Mus musculus with 3 samples.

Results

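Transcripts that define the cardiomyocytes and fibroblasts of the heart were followed through 3 RNA sequencing libraries of sorted mouse tissue macrophages. The 31 genes were given by name, 16 of them genes of the cardiomyocyte and 15 genes of the fibroblast or of the mural cells that wrap blood vessels, out of 24453 genes in the deposited table. For each gene the longest protein-coding RefSeq transcript was read, and all 31 were found.

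The libraries came from macrophages of the heart, of the kidney and of the liver, where the resident macrophages are called Kupffer cells, with 1 library for each tissue. The animals of every library were C57BL/6 mice, 8 weeks old. The same gate was used for every tissue: cells positive for CD11b and F4/80, which mark macrophages and other myeloid cells, and negative for Ly6G and Ly6C, which mark neutrophils and inflammatory monocytes. How many animals were pooled, and how the tissues were broken up, is not given in the sources used here. Total RNA was amplified with the SMARTer Ultra Low Input kit before sequencing. With 1 library for each tissue no spread between animals could be estimated, so no p-value is given, and the intervals below are 95% intervals that cover counting error only, since copies made by amplification are not independent molecules.

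Values are RPKM, the authors' reads for each kilobase of exon, scaled to 1000000 reads in each library. Whole reads were recovered from them and came to 8751971 reads over genes in the heart library, 9485360 in the kidney library and 10373685 in the liver library. In all, 9061 genes reached 1 RPKM in the heart library, 9923 in the kidney library and 9201 in the liver library. For a transcript of 2000 bases, 3 reads corresponded to 0.104 RPKM in heart, 0.0965 RPKM in kidney and 0.0896 RPKM in liver. The macrophage label held against its markers. All 20 pan-macrophage genes had at least 10 RPKM in the heart and liver libraries, and 19 of the 20 did so in the kidney library. The lysozyme gene Lyz2 had 630.5 RPKM in heart, 428 in kidney and 626 in liver, Cd74 had 814, 1209.8 and 764 RPKM and Cd14 had 471, 345 and 288 RPKM. Itgam, which encodes CD11b, had 93.7, 38.002 and 27.9 RPKM, and the complement gene C1qa 67.9, 164 and 195.4 RPKM.

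Cardiomyocytes contract through sarcomeres, in which thick filaments of myosin pull on thin filaments of actin and troponin while titin spans between them as a spring. Calcium released through the ryanodine receptor starts each beat, phospholamban restrains the pump that takes the calcium back, and myoglobin and creatine kinase keep oxygen and phosphate energy at hand. Cardiac fibroblasts build the matrix around the muscle. They secrete fibrillar collagens together with small leucine-rich proteoglycans such as decorin and lumican, and they carry the PDGF receptor alpha, while mural cells carry the PDGF receptor beta and contractile proteins of smooth muscle. None of these genes is a usual marker of macrophages, although fibronectin can be made by macrophages as well as by fibroblasts.

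The heart library held reads of 30 of the 31 genes, 15 of 16 of the cardiomyocyte and all 15 of the fibroblast and mural genes. A heart read was found for 54.3% of all genes. The kidney library held reads of 14 of the 31 (6 and 8), where 54.4% of all genes had a kidney read, and the liver library of 8 (1 and 7), where 49.1% of all genes had a liver read. The cardiomyocyte genes were low: 7 of the 16 reached 1 RPKM in the heart library, against 2 in the kidney and 0 in the liver library, and no library had one at 10 RPKM. Of the 15 fibroblast and mural genes 11 reached 1 RPKM in the heart library, against 4 in the kidney and 6 in the liver library. Decorin, lumican, matrix Gla protein and biglycan exceeded 10 RPKM in heart, and none of the 31 did so in kidney or liver. The level was highest in the heart library for 26 of the 31 genes (14 cardiomyocyte, 12 fibroblast and mural), and for 27% of all genes with a read in any library.

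Added up, the 16 cardiomyocyte genes took 40.4 reads per 1000000 (36.3 to 44.9, exact Clopper-Pearson interval, 354 reads) in the heart library. They took 10.02 per 1000000 (8.10 to 12.2, 95 reads) in kidney, and 1 read in all, 0.0964 per 1000000, in liver. The share in heart was 4.04 times (3.21 to 5.12) that in kidney and 419.6 times that in liver, with an interval of 74.8 to 16619 that reflects the single liver read. The 15 fibroblast and mural genes took 691 reads per 1000000 (674 to 709, 6047 reads) in heart, 42.8 (38.7 to 47.2, 406 reads) in kidney and 111 (104 to 117, 1147 reads) in liver. That was 16.1 times (14.6 to 17.9) the kidney share and 6.25 times (5.87 to 6.66) the liver share. Decorin alone supplied 55.9% of the heart reads of this list, and without it the shares were 304 in heart, 41.3 in kidney and 85.9 reads per 1000000 in liver. In a bulk library, a smaller number of cells of a type and less RNA in each cell cannot be told apart.

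Genes of the other tissues' main cells give a scale for these shares. The 16 renal tubule genes took 14.1 reads per 1000000 in the heart library, 1806 in the kidney library and 17.4 in the liver library. They were led in kidney by uromodulin (Umod), with 0 RPKM in heart, 215 in kidney and 0 in liver, Klk1, with 0, 139.8 and 2.27 RPKM, and Slc12a1, with 0, 63.4 and 0 RPKM. The 16 hepatocyte genes took 1492, 1453 and 2084 reads per 1000000 in heart, kidney and liver. Nearly all of this in heart and kidney was transferrin (Trf), with 388, 382 and 384 RPKM in heart, kidney and liver. At most 3 tags were counted at a position, which may hold down a densely covered gene such as Trf in every library. Without transferrin the other 15 hepatocyte genes took 8.80 reads per 1000000 in heart, 4.74 in kidney and 649 in liver, led by albumin (Alb), with 0, 0.22 and 64.3 RPKM, and Serpina1a, with 0, 0 and 43.8 RPKM. Each library thus held transcripts of the parenchyma of its own organ at a level above the other 2 libraries, and the cardiomyocyte share of the heart library was below the tubule share of the kidney library and the hepatocyte share of the liver library, from lists of different genes. Whether these reads came from the sorted macrophages or from other cells of the tissue was not tested.

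**Figure D1:**
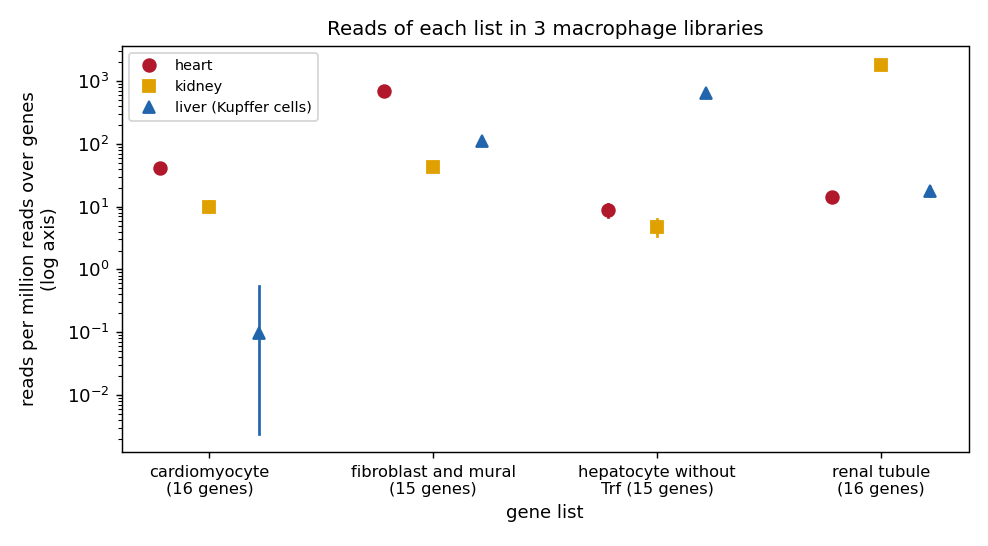
Reads of 4 gene lists per 1000000 reads over genes (log axis) in the heart, kidney and liver macrophage libraries; points are single libraries and lines exact 95% Clopper-Pearson intervals, many hidden by the points. The cardiomyocyte list lies at 40.4 in heart, 10.02 in kidney and 0.0964 in liver, and the fibroblast and mural list at 691, 42.8 and 111 in the same order, while hepatocyte genes other than Trf peak in liver at 649 and renal tubule genes in kidney at 1806.

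Genes with at least 1 RPKM in at least 1 library were compared between libraries on log2(RPKM + 1), and 4-fold on this scale, 2 log2 units, counted as higher or lower. This scale holds back the difference of low genes, and 19 of the 31 genes entered it (7 cardiomyocyte, 12 fibroblast and mural) among 11482 genes in all. Against liver, 3 cardiomyocyte genes (Myl2, Tnni3, Tnnc1) and 5 fibroblast genes (Dcn, Lum, Bgn, Mgp, Fn1) were higher in heart by at least 4-fold, where 5.33% of all genes compared were. Against kidney, no cardiomyocyte gene passed 4-fold and the same 5 fibroblast genes did, where 2.4% of all genes did. These 5 were therefore also higher than in both other libraries, which held for 1.25% of all genes. A single gene, the pericyte gene Rgs5, was lower in heart than in liver by at least 4-fold (7.13% of all genes), and none of the 31 was lower in heart than in kidney (5.1% of all genes) or than in both (1.26% of all genes). Both heart comparisons use the same heart library. Lum, Fn1 and Tnni3 entered the comparison through the heart library alone. For Lum and Fn1, with 0 reads in kidney and liver, the heart level alone decided the calls, so these are not a separate result. Over all 16 cardiomyocyte genes, those under 1 RPKM included, the median difference was 0.52 against kidney and 0.80 against liver, and over all 15 fibroblast and mural genes 1.09 and 1.15. With genes at 0 reads set to 3 reads, the medians were 0.44 and 0.57 for the cardiomyocyte genes and 1.03 and 1.10 for the fibroblast and mural genes. The median was -0.23 against kidney and -0.16 against liver over the 11482 genes compared, and 0.00 against both over all 24453 genes. These counts depend on the constant added before the logarithm. With 0.1 in place of 1, 4 of the 7 cardiomyocyte genes compared were higher than in kidney by at least 4-fold (6.54% of all genes) and all 7 higher than in liver (13.8% of all genes). With 5 in place of 1 none was. All 7 had entered the comparison through at least 1 RPKM in heart, and none had over 0.041 RPKM in liver. With 0.1 such genes must pass 4-fold over liver, so 7 of 7 is not a separate result.

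Between the kidney and liver libraries, 1 of the 31 genes, Myl2, was at least 4-fold higher in kidney than in liver (7.57% of all genes). Dcn and Rgs5 were at least 4-fold lower in kidney than in liver (5.1% of all genes).

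The myosin chains gave the highest and some of the lowest cardiomyocyte values. Myl2, the ventricular regulatory light chain (mm10 chr5:122100980-122106854, + strand), had 5.98 RPKM (4.50 to 7.81, 54 reads) in heart, 3.61 RPKM (2.51 to 5.02, 35 reads) in kidney and 0 in liver. It was the highest of the 16 in heart and also in kidney, and the 2 intervals overlap: the level in heart was 1.66 times (1.06 to 2.62) that in kidney and at least 20.8-fold higher than in liver. The level in kidney was at least 12.6-fold higher than in liver. Here and below, a fold over a library with 0 reads is given as at least, with 3 reads in place of 0. It leaves out the counting error of the other library and is not a 95% limit. Myl7, the atrial regulatory light chain, had 1.43 RPKM (0.738 to 2.49, 12 reads) in heart. It had 0 in kidney (upper limit 0.408) and 0 in liver (upper limit 0.379). Against 3 reads, its heart level was at least 4.30-fold higher than in kidney and 4.63-fold higher than in liver. Myl3, the ventricular essential light chain, had 0.856 RPKM (11 reads) in heart and 0 in kidney and liver. Light chains of both the ventricle and the atrium were thus present in heart, and the kidney library held the ventricular regulatory chain without reads of the other 2. Of the heavy chains, Myh6, the alpha chain that dominates the adult mouse heart, had 0.16 RPKM (14 reads) in heart and 0 reads in kidney and liver. Myh7, the beta chain of the fetal and stressed mouse heart, had a single read in heart and 0 in kidney and liver. Of the 50-base windows of Myh6, 22.6% also occur in Myh7, so reads in the shared stretches cannot be assigned to one of them with certainty.

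All 4 thin filament genes had reads in heart, 3 of them in kidney and 1 in liver. Tnni3, cardiac troponin I, which holds contraction off at low calcium, had 3.65 RPKM (2.64 to 4.92, 43 reads) in heart, 0.474 RPKM (6 reads) in kidney and 0 in liver. The heart level was 7.71 times (3.27 to 22.2) that in kidney and at least 16.6-fold higher than in liver, so the intervals of heart and kidney did not overlap, unlike those of Myl2. Tnnc1, the troponin C of cardiac and slow muscle, had 3.09 RPKM (2.10 to 4.38, 31 reads) in heart, 1.76 RPKM (1.06 to 2.75, 19 reads) in kidney and 0 in liver. Its heart level was 1.76 times (0.96 to 3.29) that in kidney, an interval that includes equal levels, and at least 11.96-fold higher than in liver. Tnnt2, cardiac troponin T, which ties the troponin complex to tropomyosin, had 0.632 RPKM (11 reads) in heart and 0 in kidney and liver. All 9 of its RefSeq isoforms held the same 11 reads, so the data do not separate them. Actc1, cardiac actin, had 1.62 RPKM (1.12 to 2.27, 34 reads) in heart and 1 read each in kidney (0.044 RPKM) and liver (0.041 RPKM). That liver read was the only read of the 16 cardiomyocyte genes there, and the heart level was 36.6 times (6.13 to 1486) that in kidney and 39.4 times (6.60 to 1600.1) that in liver. Ttn, titin, had 23 reads in heart, 0.016 RPKM over its 101359 bases, and 0 in kidney and liver.

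The calcium and energy genes were present in heart, and the natriuretic peptides nearly absent. Ryr2, the ryanodine receptor, had 23 reads in heart (0.095 RPKM) and 0 in kidney and liver. Mb, myoglobin, had 2.38 RPKM (1.69 to 3.27, 38 reads) in heart and 0 in kidney and liver, at least 13.6-fold higher than in kidney and 14.7-fold higher than in liver. Among the 16 genes, Mb was the highest of those that had no read outside the heart library. Pln, phospholamban, had 1.34 RPKM (0.989 to 1.78, 48 reads) in heart, 0.779 RPKM (0.526 to 1.11, 30 reads) in kidney and 0 in liver. Pln shares 64.7% of its exon bases with Cep85l and Gm47644 on the opposite strand. Reads were counted on both strands, and Cep85l itself had 1.76 RPKM in heart, 0.288 in kidney and 0 in liver, the same order as Pln, so the Pln values are uncertain. Mb shares 31.9% of its exon bases with Apol6 and Gm49540 in the same way, with Apol6 at 0.659 RPKM in heart and 0 in kidney and liver. Ckm, the muscle creatine kinase, had 8 reads in heart (0.394 RPKM) and 0 in kidney and liver. Nppa, the atrial natriuretic peptide, one of the most abundant transcripts of the atrium, had 3 reads in heart, 4 in kidney and 0 in liver. It shares 61.5% of its exon bases with an antisense gene. Nppb, the B-type peptide, had 0 reads in all 3 libraries, which allows up to 0.267 RPKM in heart, 0.249 RPKM in kidney and 0.231 RPKM in liver (3 reads).

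**Figure D2:**
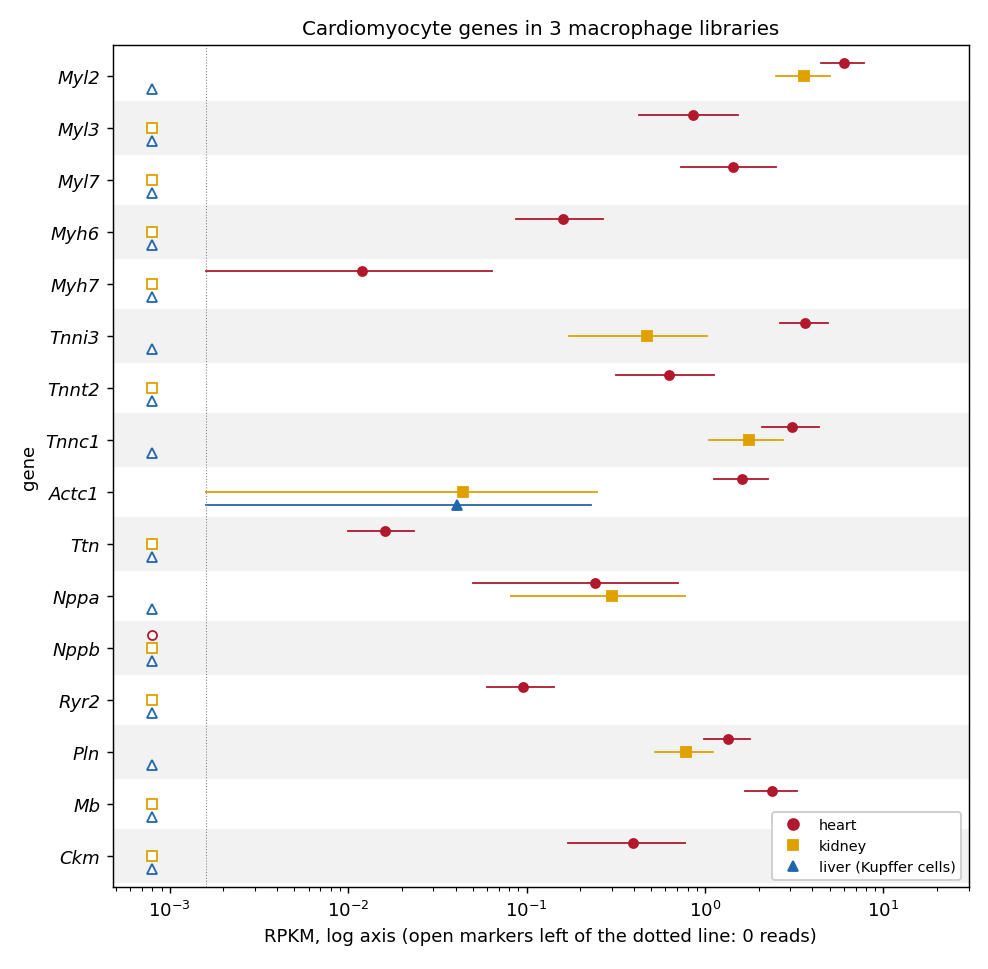
RPKM (log axis) of the 16 cardiomyocyte genes in the heart, kidney and liver macrophage libraries, 1 library each, with exact 95% Poisson intervals; open markers left of the dotted line stand for 0 reads. Heart points are present for 15 genes and reach 5.98 RPKM (Myl2), kidney points are present for 6, and the liver library has a point for Actc1 alone at 0.041 RPKM.

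Within the heart library the short cardiomyocyte transcripts had higher RPKM than the long ones. The 12 genes with transcripts under 3000 bases had a median of 1.38 RPKM (0 to 5.98), and the 4 longer ones, Myh6, Myh7, Ryr2 and Ttn, a median of 0.0555 RPKM (0.012 to 0.16). Across the 16 genes the Spearman rank correlation of exon length with heart RPKM was -0.56 and with heart reads -0.05, given as a description of genes that share 1 library. Myl2 had 37.4 times the RPKM of Myh6 and 374 times that of Ttn, but 3.86 and 2.35 times their reads. Myosin heavy chains and light chains are partners in the same filament. The cause of the relation with length was not tested.

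**Figure D3:**
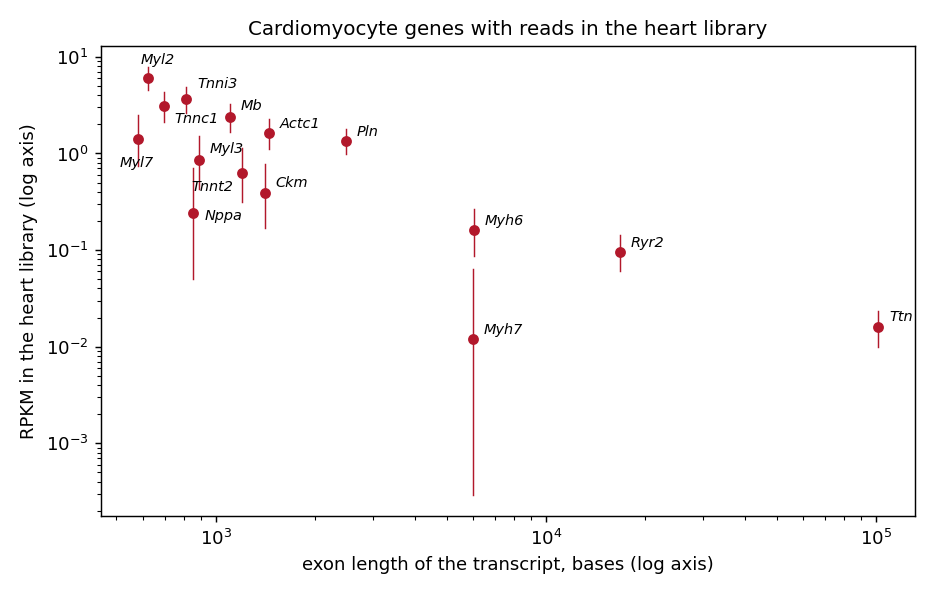
Heart RPKM (log axis, exact 95% Poisson intervals) of the 15 cardiomyocyte genes with heart reads against exon length in bases (log axis). The genes under 3000 bases lie between 0.243 and 5.98 RPKM, and Myh6, Ryr2, Ttn and Myh7 lie at or under 0.16 RPKM.

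Among the fibroblast genes the proteoglycans and small matrix proteins stood highest. Dcn, decorin, which coats collagen fibrils (mm10 chr10:97479500-97518163, + strand), had 125 RPKM (120.5 to 129, 3383 reads) in heart, 0.48 RPKM (0.262 to 0.805, 14 reads) in kidney and 8.15 RPKM (7.18 to 9.21, 256 reads) in liver. Its heart level was 259.9 times (155 to 476) that in kidney and 15.3 times (13.5 to 17.4) that in liver. Decorin was the highest of the 31 genes in heart and in liver but not in kidney, where Acta2 was. Lum, lumican, a related proteoglycan encoded next to decorin (mm10 chr10:97565501-97572703, + strand), had 21.01 RPKM (19.4 to 22.7, 629 reads) in heart and 0 reads in kidney and liver. That was at least 225.5-fold higher than in kidney and 243-fold higher than in liver, so liver held decorin without lumican. Mgp, matrix Gla protein, an inhibitor of calcification made by fibroblasts and vascular smooth muscle, had 20.4 RPKM (17.5 to 23.7, 175 reads) in heart, 1.52 RPKM (14 reads) in kidney and 0 in liver. The heart level was 13.4 times (7.80 to 25.1) that in kidney and at least 67.5-fold higher than in liver. Bgn, biglycan, had 14.7 RPKM (513 reads) in heart, 2.75 RPKM (103 reads) in kidney and 2.82 RPKM (114 reads) in liver. It was 5.36 times (4.33 to 6.68) the kidney level and 5.21 times (4.25 to 6.44) the liver level, and its intervals in kidney (2.24 to 3.33) and liver (2.33 to 3.39) overlapped.

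The fibrillar collagens, the main product of fibroblasts, were far below decorin. Col1a1, the alpha 1 chain of type I collagen, had 0.8 RPKM (68 reads) in heart, 0.055 RPKM (5 reads) in kidney and 0.315 RPKM (31 reads) in liver. Its partner chain Col1a2 had 1.22 RPKM (90 reads) in heart, 0.088 RPKM (7 reads) in kidney and 0 in liver. Liver thus held reads of 1 of the 2 chains of type I collagen, while heart and kidney held both. Col3a1, type III collagen, had 1.78 RPKM (142 reads) in heart, 0.152 RPKM (13 reads) in kidney and 0 in liver. The heart level was 14.6 times (5.97 to 46.5) that in kidney for Col1a1, 13.8 times (6.44 to 35.4) for Col1a2 and 11.75 times (6.65 to 22.6) for Col3a1, close to each other within these intervals. Against liver it was 2.54 times (1.64 to 4.02) for Col1a1 and at least 34.7-fold and 54.8-fold higher for Col1a2 and Col3a1. In heart, decorin had 156 times the RPKM of Col1a1, 102 times that of Col1a2 and 69.9 times that of Col3a1. In reads, not divided by exon length, it had 49.8, 37.6 and 23.8 times as many as these longer transcripts.

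The PDGF receptors were detected in heart alone. Pdgfra, which marks fibroblasts, had 1.62 RPKM (1.37 to 1.89, 153 reads) in heart and 0 in kidney and liver, at least 54.8-fold higher than in kidney and 59.05-fold higher than in liver. Pdgfrb, which marks pericytes and smooth muscle, had 0.18 RPKM (14 reads) in heart and 0 in kidney and liver. Fbln1, fibulin-1, a glycoprotein of elastic matrix and basement membrane, had 0.269 RPKM (13 reads) in heart and 0 in kidney and liver. Postn, periostin, a matricellular protein of valves and activated fibroblasts, ran the other way against liver. It had 1.13 RPKM (0.842 to 1.48, 52 reads) in heart, 0 in kidney and 2.66 RPKM (2.24 to 3.13, 142 reads) in liver, so the heart level was 0.424 times (0.302 to 0.586) that in liver.

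Fn1, fibronectin, had 3.37 RPKM (3.05 to 3.71, 408 reads) in heart and 0 reads in kidney and liver, at least 146-fold higher than in kidney and 157.5-fold higher than in liver. Fibronectin is made in a plasma form by hepatocytes, which lacks the extra domains B and A (EDB and EDA), and in a cellular form by fibroblasts and other cells, which can include them. The table lists 7 Fn1 isoforms that differ in these exons and in the variable region. Subtracting the reads of isoforms that differ by 1 such exon or region gave an estimate of the reads in it. Pairs that differ by the same bases did not always give the same count, so the limits below are approximate. The EDB exon is exon 25 of 46 (mm10 chr1:71613763-71614035, - strand) and the EDA exon is exon 33 (mm10 chr1:71603660-71603929, - strand). Their sequences from the GENCODE M21 transcript follow because the counts below turn on these stretches, with the alternative exon in capitals and the flanking exon bases in lower case.
EDB: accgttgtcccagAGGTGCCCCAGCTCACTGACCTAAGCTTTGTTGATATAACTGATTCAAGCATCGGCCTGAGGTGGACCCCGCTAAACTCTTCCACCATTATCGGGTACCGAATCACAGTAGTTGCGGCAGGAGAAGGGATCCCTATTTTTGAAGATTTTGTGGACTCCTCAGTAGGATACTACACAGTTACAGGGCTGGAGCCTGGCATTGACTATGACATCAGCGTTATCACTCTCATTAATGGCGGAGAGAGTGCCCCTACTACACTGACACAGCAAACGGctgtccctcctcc
EDA: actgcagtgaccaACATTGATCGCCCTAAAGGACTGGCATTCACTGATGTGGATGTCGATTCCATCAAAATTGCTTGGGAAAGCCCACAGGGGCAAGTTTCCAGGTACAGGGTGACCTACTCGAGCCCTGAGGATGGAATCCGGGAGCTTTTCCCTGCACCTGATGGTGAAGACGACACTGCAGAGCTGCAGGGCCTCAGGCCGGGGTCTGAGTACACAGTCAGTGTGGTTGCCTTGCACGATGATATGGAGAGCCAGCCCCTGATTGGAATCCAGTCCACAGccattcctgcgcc
The EDB exon held 0 heart reads (upper limit 3.69), where the mean density of the transcript, 53.5 reads per kilobase, would give 14.6. The EDA exon held 0, 0 and 1 reads in the 3 pairs of isoforms that differ by it, where the mean density would give 14.4. The upper limit for 0 reads corresponds to 25.3% of the mean density for EDB and 25.6% for EDA, and that for the pair with 1 EDA read, 5.57 reads, to 38.7%. The variable region of 360 bases held 7 or 8 reads, where the mean density would give 19.3. Fibronectin reads of the heart library thus came with few or no reads of the extra domains at this depth. Coverage along the transcript cannot be read from the table, and skipped exons and poorly covered exons cannot be told apart.

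Of the mural cell genes, Acta2 and Tagln differed by less than 2-fold between heart and the other libraries, and Rgs5 was highest in liver. Acta2, smooth muscle actin, had 7.64 RPKM (6.78 to 8.59, 283 reads) in heart, 4.29 RPKM (3.67 to 4.99, 171 reads) in kidney and 4.41 RPKM (3.80 to 5.08, 189 reads) in liver. The heart level was 1.78 times (1.47 to 2.16) that in kidney and 1.73 times (1.44 to 2.10) that in liver. Tagln, transgelin, an actin-binding protein of smooth muscle, had 5.30 RPKM (121 reads) in heart, 3.22 RPKM (79 reads) in kidney and 5.75 RPKM (152 reads) in liver. Its heart level was 1.65 times (1.23 to 2.22) that in kidney and 0.922 times (0.72 to 1.18) that in liver, an interval that includes equal levels. Tagln shares 67.9% of its exon bases with Pcsk7 and Gm48529. Pcsk7 had 3.32 RPKM in heart, 6.69 in kidney and 12.8 in liver, and since reads were counted on both strands the Tagln values are uncertain. Rgs5, a regulator of G protein signalling that marks pericytes, had 3 reads in heart (0.051 RPKM), 0 in kidney and 3.84 RPKM (3.39 to 4.33, 263 reads) in liver. The heart level was 0.0132 times (0.0027 to 0.039) that in liver, the largest difference toward liver among the 31 genes. All 263 liver reads were counted on the long isoform and 0 on the short one, which shares 273 bases with it: 100 of the 121 bases of exon 1, and exons 2 and 3. At the mean density of the long isoform these bases would hold 17.5 reads. The Rgs5 reads of the liver library therefore lay outside the shared bases. Exon 5 holds 3635 of the 3823 other bases (mm10 chr1:169692179-169695813, + strand), and no other gene is annotated over the exons of Rgs5.

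**Figure D4:**
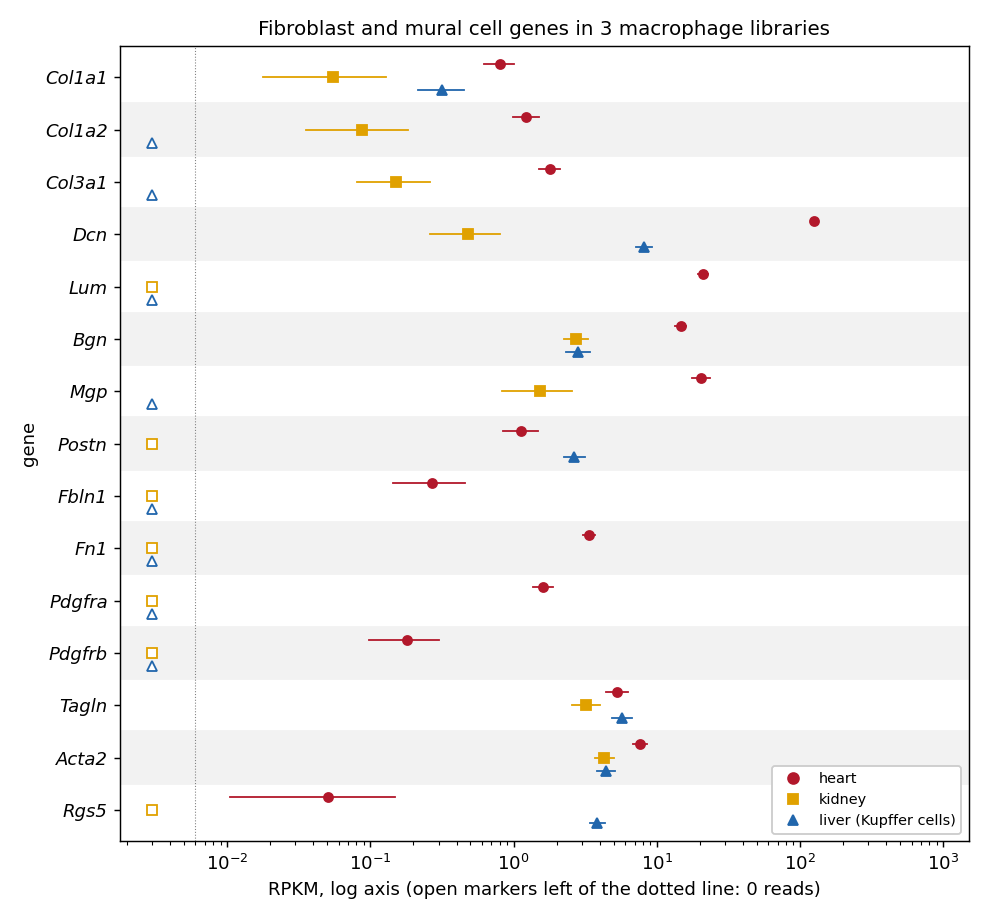
RPKM (log axis) of the 15 fibroblast and mural cell genes in the heart, kidney and liver macrophage libraries, 1 library each, with exact 95% Poisson intervals; open markers left of the dotted line stand for 0 reads. All 15 genes have a heart point, from 0.051 RPKM (Rgs5) to 125 RPKM (Dcn), while Postn, Rgs5 and Tagln have their highest point in liver.

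**Figure D5:**
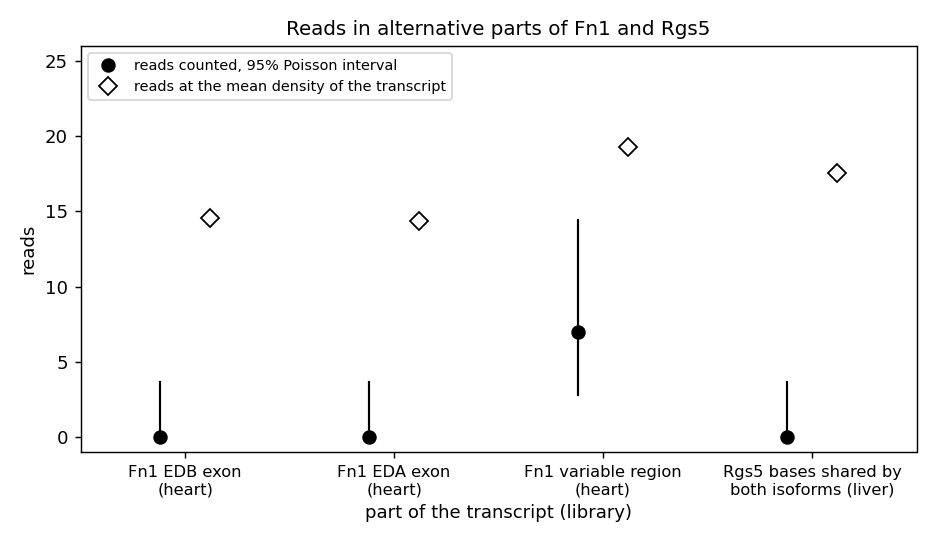
Reads counted (filled points, exact 95% Poisson intervals) and reads at the mean density of the transcript (open diamonds) in alternative parts of Fn1 in the heart library and of Rgs5 in the liver library. EDB and EDA of Fn1 and the bases of Rgs5 shared by both isoforms hold 0 reads, where 14.6, 14.4 and 17.5 would lie at the mean density, and the variable region of Fn1 holds 7 against 19.3.

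The cardiomyocyte genes with more than 1 read in the kidney library were Myl2, Tnnc1, Pln, Tnni3 and Nppa, at 35, 19, 30, 6 and 4 reads. Tnnc1 is also made by slow skeletal muscle, as is Myl2. The source of the kidney reads of these genes was not tested.

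Other genes of the same cells were read from lists that hold no member. Of 42 other cardiomyocyte genes 23 had heart reads, near the share of all genes given above, 16 had kidney reads and 16 liver reads. The list took 388 reads per 1000000 in heart, 266 in kidney and 219.8 in liver, so its heart share was 1.46 times (1.38 to 1.54) that in kidney and 1.76 times (1.67 to 1.86) that in liver, against 4.04 and 419.6 times for the 16 genes. Of the 42 genes 14 entered the comparison on log2(RPKM + 1). Against liver 2 were at least 4-fold higher in heart, where 5.33% of all genes compared were. They were the fatty acid carrier Fabp3, with 5.56 RPKM in heart, 17.95 in kidney and 0 in liver, and the M-band protein Myom1, with 4.55, 1.07 and 0.096 RPKM. Against kidney 1 was higher (2.4% of all genes), the muscle enolase Eno3, with 25.9 RPKM in heart, 3.79 in kidney and 19.2 in liver. Another 1 was lower (5.1% of all genes), the phosphoglycerate mutase Pgam2, with 0.461, 10.2 and 0.729 RPKM. None was at least 4-fold higher than in both on this scale. The highest others in heart were Atp2a2, the calcium pump that phospholamban restrains, with 17.4 RPKM in heart, 7.52 in kidney and 11.1 in liver, and Cox7a1, with 11.1, 18.9 and 15.8 RPKM. Atp2a2 is also made outside muscle. Of the 5 cardiac transcription factors in the list, Nkx2-5, Tbx5, Tbx20 and Hand2 had 0 heart reads and Gata4 had 2. The sarcomere genes Actn2, Mybpc3, Myom2 and Csrp3 also had 0 heart reads. Mybpc3 had 9 reads in liver (0.131 RPKM) and 0 in kidney, and Actn2 had 1 read in kidney.

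Of 38 other fibroblast and matrix genes 32 had heart reads, 14 kidney reads and 11 liver reads. The list took 585 reads per 1000000 in heart, 749 in kidney and 115 in liver. Its heart share was 0.781 times (0.753 to 0.809) that in kidney and 5.09 times (4.78 to 5.42) that in liver. Against kidney the summed share thus ran the other way from the 15 genes. A single gene, Gsn, held 4126 of the 7105 kidney reads of the list and 1158 of its 5117 heart reads. Over the 38 genes the median difference of heart minus kidney was 0.14, and none was at least 4-fold lower in heart than in kidney. On log2(RPKM + 1), 15 of the 38 entered the comparison. In heart 7 were at least 4-fold higher than in liver (5.33% of all genes compared) and 7 higher than in kidney (2.4%). Higher than in both were 5 (1.25% of all genes compared), Dpt, Mfap4, Mfap5, Ogn and Dpep1. Those 5 entered the comparison through the heart library alone. Ogn, the proteoglycan osteoglycin, had 14.3 RPKM in heart and 0 in kidney and liver. Gsn, gelsolin, which macrophages also make, had 30.3 RPKM in heart, 100.3 in kidney and 6.12 in liver, and the collagen Col14a1 had 11.5, 14.8 and 0.103 RPKM. Col14a1 was thus near its heart level in kidney, unlike the fibrillar collagens. Thy1 and Pi16, surface markers of fibroblasts, had 0 heart reads. Of 17 other mural genes 13 had heart reads, 5 kidney reads and 6 liver reads, with 44.2 reads per 1000000 in heart, 12.02 in kidney and 31.04 in liver, and none was at least 4-fold higher in heart than in either other library. Cox4i2 was lower than in both (1.26% of all genes), with 0.096 RPKM in heart, 3.93 in kidney and 3.90 in liver. Mylk had 1.98, 0.471 and 0.599 RPKM, Myh11 0.567, 0.059 and 0.054 RPKM and Abcc9 0.498, 0 and 0.701 RPKM in heart, kidney and liver. Vtn, which pericytes and hepatocytes make, had 2.27 RPKM in liver and 0 in heart and kidney.

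Lists of further cell types give the levels that moved beside the members. Of 14 skeletal muscle genes 4 had heart reads, 5 kidney reads and 5 liver reads, led in heart by Tnni2 (6.93 RPKM in heart, 16.4 in kidney, 5.08 in liver), Acta1 (4.39, 7.50 and 2.72) and Mylpf (2.50, 9.57 and 3.68), while the fast myosins Myh1, Myh2 and Myh4 had 0 heart reads. The list took 22.1 reads per 1000000 in heart, 50.5 in kidney and 33.8 in liver, a different order from the cardiomyocyte genes. Of 18 endothelial genes 15 had heart reads, 10 kidney reads and 14 liver reads, and the list took 227, 70.2 and 693 reads per 1000000. Fabp4, which is also in the adipocyte list, held 1275 of the 1989 heart reads. It held 38 of the 666 kidney reads and 319 of the 7185 liver reads. Fabp4 led in heart (139 RPKM in heart, 3.85 in kidney and 30.004 in liver), followed by Emcn (5.26, 3.96 and 0.908) and Pecam1 (3.15, 7.90 and 25.8), while Cdh5 was at 0.766, 0.032 and 52.9 RPKM. The endothelial list was highest in liver, where Rgs5 and Postn were also highest. Of 10 hepatic stellate cell genes 5 had heart reads, 2 kidney reads and 6 liver reads, with 40.3, 27.8 and 99.9 reads per 1000000. Among them Hgf had 5.11 RPKM in heart, 5.07 in kidney and 10.07 in liver and Ecm1 had 4.07, 1.43 and 6.75, while Lrat and Colec11 were read in liver alone. The part of endothelial, stellate or mural cells in the liver reads of decorin, periostin and Rgs5 was not tested.

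The remaining lists covered renal stroma, Schwann cells, mesothelium and adipocytes. Of 7 renal stroma genes 4 had heart reads, 3 kidney reads and 2 liver reads. Adamts1 had 5.34 RPKM in heart and 0 in kidney and liver, and Itga8 had 0.373 RPKM in heart, 5.97 in kidney and 0 in liver. Of 9 Schwann cell genes 4 had heart reads, 3 kidney reads and 3 liver reads, led by Pmp22 with 324, 95.7 and 199.98 RPKM, and Sox10 had 0 heart reads. Mbp had 4.25 RPKM in heart, 6.68 in kidney and 0.112 in liver. Of 9 mesothelial and epicardial genes 3 had heart reads, 2 kidney reads and 0 liver reads. Gpm6a had 1.29 RPKM in heart and 0 in kidney and liver, while Msln and Wt1 had 0 heart reads and the epithelial keratins Krt18 (0, 2.59 and 0 RPKM) and Krt8 (0, 1.29 and 0 RPKM) were read in kidney alone. Upk1b and Upk3b had under 0.1 RPKM in heart and 0 in kidney and liver. Of 7 adipocyte genes Fabp4 alone had reads in heart, kidney and liver, and Adipoq, Plin1 and Cfd had 0 heart reads.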

How the data were processed

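RNA of macrophages from heart, kidney and liver was measured by sequencing, with 1 library for each tissue. The members and the gene lists were chosen with earlier results of these data known. CASAVA, STAR and the build mm10 are named in the submitters' processing notes, without versions. RPKM was deposited by the authors for each of 34711 RefSeq transcripts. The HOMER program analyzeRepeats.pl, per the file headers, counted exon reads on both strands, scaled each library to 1000000 and took at most 3 tags at a position, which holds down densely covered genes. The column names say FPKM.

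Here 1 transcript was kept for each of 24453 genes, the longest coding one or else the longest noncoding one. Low RPKM values times exon length were checked over transcripts, isoforms included. They were whole multiples of 1 read within 0.1 of a read for 12904 of 12907 transcripts in heart, 11991 of 11992 in kidney and 10174 of 10176 in liver (up to 500 reads). Long transcripts were not in this check, among them those of Ttn, Ryr2, Fn1, Myh6, Myh7, Pdgfra, Pdgfrb and the fibrillar collagens. The depth over all transcripts was 14460612 reads in heart, 15550837 in kidney and 16743416 in liver, with a read counted again for each isoform.

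Differences were taken on log2(RPKM + 1) over 11482 genes. Folds in the text divide RPKM by RPKM with nothing added. Where a library had 0 reads, it was set to 3 reads and the fold given as at least. These bounds leave out the counting error of the other library. With 1 library a tissue there was no test and no count model across samples. Named genes are all 31 members and, from each of 13 other lists, the 3 highest in heart (in liver for hepatocyte and in kidney for tubule genes) and the 2 with the largest difference. Some genes that this rule names are not reported here. Other genes named in the text were chosen after their values were seen, among them the genes with 0 reads and the overlapping genes. Exon overlap and sequences came from GENCODE M21, which is on mm10. Alternatives tried were pseudocounts of 0.1 and 5, no filter, TPM and median ratio scaling, the transcript with the highest mean, and leaving out genes with over 2 reads per base. The scripts were tested on simulated data. Python 3.11.15, numpy 2.4.6, pandas 2.3.3, scipy 1.17.1 and matplotlib 3.10.9 were used.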

Additional observations from a re-analysis of the deposited data

How the results depend on the processing

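The counts of genes at least 4-fold apart depended on the pseudocount and on TPM scaling, while median ratio scaling, the transcript with the highest mean and leaving out genes with over 2 reads per base moved none of them by over 1.5 times. Dropping the filter on low values could not move them, since a gene under 1 RPKM in every library cannot reach 4-fold with a pseudocount of 1, and the medians are over all members at every setting. Cardiomyocyte genes higher in heart than in liver numbered 3, against 7 with a pseudocount of 0.1, 0 with 5 and 7 on TPM. Fibroblast and mural genes higher in heart than in liver numbered 5, against 8, 3 and 8 at the same settings, and the 1 gene lower in heart became 0 with 5. Cardiomyocyte genes higher in heart than in kidney numbered 0, against 4 with 0.1 and 4 on TPM, and fibroblast and mural genes 5, against 9 with 0.1, 2 with 5 and 9 on TPM. Higher in heart than in both were 0 cardiomyocyte genes, against 4 with 0.1 and 4 on TPM, and 5 fibroblast and mural genes, against 8 with 0.1, 2 with 5 and 8 on TPM. Higher in kidney than in liver was 1 cardiomyocyte gene, against 4 with 0.1, 0 with 5 and 2 on TPM, and no fibroblast or mural gene, against 1 with 0.1 and 1 on TPM, while the 2 genes lower in kidney became 0 with 5. A smaller pseudocount widens the differences of low genes by construction, and TPM multiplies these libraries' values before the same pseudocount is added.

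The cardiomyocyte median of heart minus liver was 0.80, against 3.06 with 0.1, 0.20 with 5 and 1.88 on TPM, and that of heart minus kidney 0.52, against 1.17 with 0.1 and 0.15 with 5. The fibroblast and mural median of heart minus liver was 1.15, against 2.34 with 0.1, 0.40 with 5 and 2.44 on TPM, and that of heart minus kidney 1.09, against 2.82 with 0.1, 0.40 with 5 and 2.29 on TPM. In alternatives chosen after seeing the data, leaving out Dcn gave fibroblast and mural shares of 304 reads per 1000000 in heart and 85.9 in liver, and leaving out Trf gave hepatocyte shares of 8.80 in heart, 4.74 in kidney and 649 in liver. Set against the alternatives, summary values moved in 37 cases and did not in 86, values of single genes moved in 173 and did not in 478, and no value of at least 4-fold changed direction. Median ratio scaling moved the median of all genes to 0.00 against liver, where it was -0.16, and to -0.01 against kidney, where it was -0.23. No paired analysis was possible because each tissue had 1 library. Genes with 0 reads are not shown to be absent: on 2000 bases, 3 reads are 0.104 RPKM in heart.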

Other observations

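Decorin, lumican and biglycan belong to the small leucine-rich proteoglycans, a family of matrix proteins that bind collagen, several of whose genes lie in tandem clusters. The 11 genes of the family described here were chosen after the values of decorin and lumican were seen, and no test was run on them. In the heart library 7 of the 11 had reads and 4 had none, where 54.3% of all genes had a heart read. On mouse chromosome 10 (mm10 chr10:97479500-97681900) the cluster holds Dcn and Lum, both read in heart, and Kera and Epyc, genes known mainly from cornea and cartilage, which had 0 reads in all 3 libraries. On chromosome 13 (mm10 chr13:49504810-49624500) the cluster holds Ogn with 14.3 RPKM in heart (524 reads), Aspn with 1.39 RPKM (47 reads) and Ecm2 with 0.637 RPKM (33 reads), each with 0 reads in kidney and liver. The fourth gene there, Omd, had 0 reads in heart, 0.995 RPKM (27 reads) in kidney and 0 in liver. On chromosome 1, Prelp had 3.33 RPKM in heart (173 reads), 0 in kidney and 1.69 RPKM (102 reads) in liver, while Fmod, fibromodulin of tendon and cartilage, had 0 reads in all 3. Lum on chromosome 10 and Ogn, Aspn and Ecm2 on chromosome 13 were thus read in heart alone, while Dcn also had kidney and liver reads. Both clusters also hold neighbours that were not read in heart at all.

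Of the 42 other cardiomyocyte genes 19 had 0 heart reads and 16 had at least 10. Of these 16, 5 had 0 reads in kidney and liver. Cox7a1, Fabp3 and Pgam2 were higher in kidney than in heart. Some of the 42 were read in heart and, in these libraries, not in kidney or liver. Casq2, the calcium-binding protein of the sarcoplasmic reticulum that works with Ryr2, had 1.58 RPKM (57 reads) in heart. Lmod2, a leiomodin of the thin filament, had 1.09 RPKM (31 reads), Cox8b, a muscle subunit of cytochrome oxidase, 2.89 RPKM (15 reads), and Myoz2, a Z-disc protein, 0.725 RPKM (12 reads). Nexn, another thin filament protein, had 1.09 RPKM (40 reads) in heart, 0 in kidney and 1 read in liver, and the mitochondrial creatine kinase Ckmt2 had 19 reads in heart, 1 in kidney and 0 in liver. These genes were named after their values were seen.

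Of the 38 other fibroblast and matrix genes 23 had at least 10 heart reads, and 8 of these had 0 reads in kidney and liver. Among the 8, Dpt, dermatopontin, had 8.15 RPKM (192 reads) in heart, Mfap5 5.59 RPKM (113 reads) and Mfap4 4.09 RPKM (89 reads). They too were named after their values were seen. Dpep1 had 7.25 RPKM (234 reads) in heart, 0.692 RPKM (24 reads) in kidney and 0 in liver. Tcf21, a transcription factor of cardiac fibroblasts, had 2 reads in heart and 0 in kidney and liver.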
